A study of Homo sapiens with 4 samples.

Results

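The genes described here are KYNU and 9 other genes of the kynurenine pathway of tryptophan or of NAD synthesis. They were measured in SCC-15, a human tongue squamous carcinoma cell line. They are KYNU, IDO1, TDO2, AFMID, KMO, AADAT, HAAO, QPRT, NAMPT and NAPRT. Every probe set that the platform annotation assigns to exactly 1 of these genes was included, which gave 17 of the 49293 probe sets on the array and 10 of 18132 genes. The set was chosen by the mimic against control difference of KYNU, which was among the largest decreases, so the KYNU values are a description with no test. The other 9 genes were added for their place in the pathway. Their adjusted p-values come from the fit over all genes.

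There were 4 one-colour Affymetrix arrays of total RNA, 2 of cells transfected with a microRNA mimic and 2 of cells transfected with the negative control oligonucleotide miR-NC. Transfection was at 30 nM, 24 h after seeding, and cells were harvested 36 h later. A mimic is a synthetic duplex that delivers the sequence of a mature microRNA. Its name is miR-762 in the series title and design but miR-585-5p on the samples, so it is called the mimic below. The labels do not say that replicates were separate cultures, so the spread behind each p-value, that between these arrays, may be technical. Nor can a lower level in bulk RNA be split into fewer expressing cells and less RNA per cell.

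Both candidate microRNAs are shown because a reader following a decrease such as that of KYNU would begin from the seed. The mature sequences are those of RefSeq (GRCh38.p14), written 5′ to 3′, with the seed, bases 2 to 8, in capitals. The first lies at chr16:30893951-30893972 on the plus strand and the second at chr5:169263649-169263670 on the minus strand.
hsa-miR-762: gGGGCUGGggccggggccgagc
hsa-miR-585-5p: cUAGCACAcagauacgcccaga
The seeds are different, so the 2 names point to different sets of possible targets. Target sites in transcripts were not analysed here.

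Most dietary tryptophan that is not built into protein is broken down through kynurenine. IDO1 or TDO2 opens the ring and AFMID releases kynurenine, which KMO hydroxylates, KYNU cleaves to anthranilic acids, and AADAT turns into kynurenic acid. HAAO and QPRT carry the route on to nicotinic acid mononucleotide, a precursor of NAD. NAMPT and NAPRT start NAD synthesis from nicotinamide and nicotinic acid. Kynurenine and kynurenic acid are ligands of the aryl hydrocarbon receptor, and IDO1 and KYNU are known as inflammation-induced genes.

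Values below are log2 of the deposited RMA intensities, and differences are mimic minus control on that scale. Probe sets whose mean over the 4 arrays was in the lowest 30%, under a log2 level of 2.83, were called dim and not tested. A gene is represented by its brightest probe set. A level of 1 probe set cannot be set against that of another, so levels are compared only between arrays. Of 14340 genes tested, 30.1% passed at a Benjamini-Hochberg adjusted p under 0.05 in limma, 17.7% as higher and 12.3% as lower, and the groups did not overlap for 70.4%. The higher share of those calls was 59.0%, with 2544 higher and 1766 lower, and 44.0% when the log2 values were quantile-normalized once more, with 2057 higher and 2620 lower. The median difference of all genes was -0.02. Of 8 squamous markers, the 5 with a probe set of their own (KRT5, KRT14, DSG3, CDH1 and SFN) were all above the dim level. Their summed intensities were 9900.1 and 10082 in the mimic arrays and 7913 and 7543 in the controls. Above that level were also 5 of 8 myeloid, 3 of 6 fibroblast and 2 of 5 hepatocyte markers, so passing it does not establish the squamous label.

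KYNU, which encodes kynureninase, was lower in both mimic arrays. Its brightest probe set was at 5.06 and 5.11 in the mimic arrays and at 6.40 and 6.46 in the control arrays, or intensities of 33.4 and 34.5 against 84.5 and 88.2. The groups did not overlap, and arrays of a group lay within 0.07 of each other. The difference was -1.35 ± 0.061 (moderated SE, n = 2 per group), 2.54-fold lower. This value put KYNU in place 10 among the called decreases whose groups did not overlap, between ERP27 at -1.42 and DIO2 at -1.29. By difference alone it was in place 12 among all tested genes.

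The size of the KYNU decrease depended on the probe set. A second probe set, annotated to another KYNU transcript, was at 5.02 and 4.74 in the mimic arrays and at 5.50 and 5.70 in the controls, a difference of -0.72. It is of the _x_at kind, whose probes can match other sequences. The brightest probe set exceeded it by 0.04 and 0.36 in the mimic arrays and by 0.90 and 0.76 in the controls, so the gap between them was narrower in both mimic arrays. The third was dim, at 2.04, 1.47, 2.35 and 1.99 in mimic 1, mimic 2, control 1 and control 2, and its groups overlapped. With the mean of the probe sets above the dim level in place of the brightest one, KYNU differed by -1.03.

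**Figure D1:**
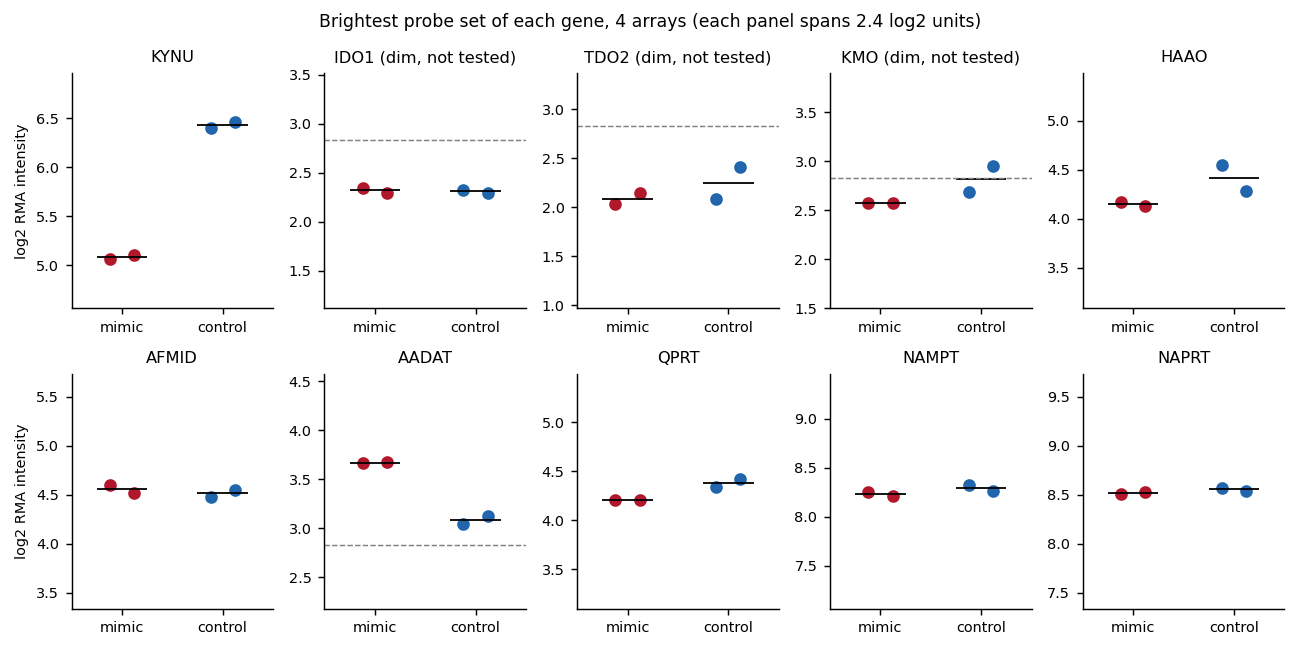
Log2 RMA intensity (y axis) of the brightest probe set of each of the 10 genes in the 2 mimic (red) and 2 control (blue) arrays. Points are arrays, short lines are group means, and the dashed line is the dim level of 2.83. Panels span the same number of log2 units, so the gaps between groups can be compared and the absolute heights cannot. KYNU has the widest gap and AADAT the widest in the other direction.

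The entry enzymes were dim. IDO1, the interferon-inducible dioxygenase that starts the pathway outside the liver, was at 2.35 and 2.29 in the mimic arrays and 2.32 and 2.30 in the controls, a difference of 0.01. TDO2, the dioxygenase best known from liver, was at 2.03 and 2.15 in the mimic arrays and 2.09 and 2.42 in the controls. In both genes the groups overlapped. A dim value cannot be told from background, so these arrays give no level for either gene.

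KMO, the monooxygenase that makes the hydroxykynurenine on which KYNU also acts, was dim as well. Its brighter probe set was at 2.57 in both mimic arrays and at 2.69 and 2.95 in the controls, a difference of -0.24. Its groups did not overlap, but 3 of the 4 values lay under the dim level. The other KMO probe set overlapped, with a difference of -0.08. The 6 dim probe sets of the 10 genes lay between 1.40 and 2.95 in all arrays.

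AADAT, the aminotransferase that takes kynurenine to kynurenic acid, was the member that rose. Its single probe set was at 3.67 and 3.68 in the mimic arrays and at 3.05 and 3.13 in the controls. The groups did not overlap, and the gap was several times the spread within either group. The difference was 0.58 ± 0.061 (SE), 1.5-fold (limma adjusted p = 0.00453). The controls lay close to the dim level, and with no detection calls low values cannot be told from background. The call was lost on leaving out mimic replicate 1, mimic replicate 2 or control replicate 1. On leaving out any 1 of the 4 arrays the difference stayed between 0.54 and 0.62. These fits leave 1 array in a group and pass far fewer genes or none, so that loss is not particular to AADAT. The difference was 0.23 with a pseudocount of 16. Over the alternatives that kept all 4 arrays the limma adjusted p ranged from 0.00312 to 0.0208.

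Of the 6 members tested besides KYNU, AADAT was the 1 that rose and 0 fell in limma, with 2 lower at an unadjusted p under 0.05. Their groups did not overlap in 5 of 6, against 70.4% of all genes, and their median difference was -0.05, against -0.02. Since 30.1% of all genes passed, 1 call in 6 does not stand out from the array as a whole.

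AFMID, the formamidase that releases kynurenine, gave a different answer by probe set. Its brightest was at 4.60 and 4.52 in the mimic arrays and 4.48 and 4.55 in the controls, with overlapping groups and a difference of 0.05 ± 0.066 (adjusted p = 0.626). The other was at 3.64 and 3.59 in the mimic arrays and 3.89 and 3.94 in the controls. That one passed in the fit over 31711 probe sets (-0.30 ± 0.067, limma adjusted p = 0.0341). This call was lost with a replicate block, no filter, a pseudocount of 16 or a trend in the prior (limma adjusted p from 0.0585 to 0.076). On leaving out any 1 array the difference lay between -0.33 and -0.28. Every probe set lost its call in those fits, so that loss is not particular to AFMID. In that fit 22.4% of probe sets passed, 14.5% as higher and 7.95% as lower. Among the 9 tested probe sets of members besides KYNU, 1 passed in each direction, and the groups did not overlap in 6, against 66.6% of all probe sets.

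HAAO, the dioxygenase one step after KYNU on the way to NAD, was at 4.18 and 4.13 in the mimic arrays and at 4.55 and 4.29 in the controls. The groups did not overlap, but the control arrays differed from each other nearly as much as the group means did, and the difference of -0.26 ± 0.10 did not pass (limma adjusted p = 0.105). Its second probe set gave -0.25 with overlapping groups. QPRT, which turns quinolinic acid into the nicotinic acid mononucleotide, was at 4.21 in both mimic arrays and at 4.34 and 4.43 in the controls. Its difference of -0.17 ± 0.061 did not pass either (adjusted p = 0.093).

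The salvage enzymes were bright and close to level. NAMPT, the enzyme that starts NAD synthesis from nicotinamide, was at 8.25 and 8.21 in the mimic arrays and at 8.33 and 8.26 in the controls, a difference of -0.06 ± 0.061 (limma adjusted p = 0.47). Its second probe set overlapped, with a difference of -0.02. NAPRT, which does the same from nicotinic acid, was at 8.51 and 8.53 in the mimic arrays and at 8.57 and 8.54 in the controls, a difference of -0.04 ± 0.057 (adjusted p = 0.632). For both genes all alternatives lay between -0.15 and -0.02.

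**Figure D2:**
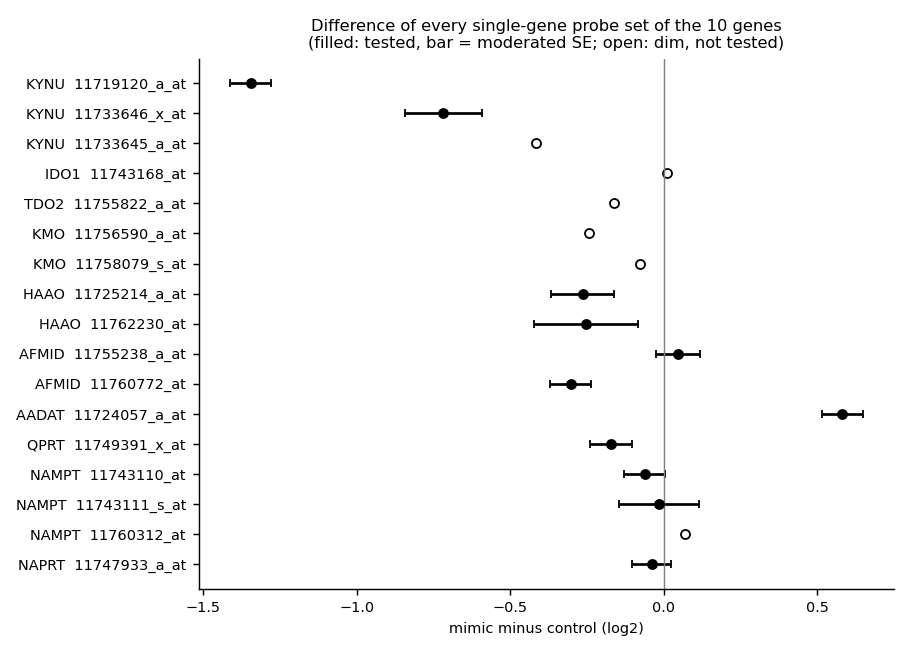
Mimic minus control (x axis, log2) for each of the 17 probe sets of the 10 genes (y axis, gene and probe set name). Filled points were tested and carry the moderated SE from the fit over all probe sets, and open points were dim and not tested. The KYNU probe sets stand at -1.35, -0.72 and -0.41, AADAT at 0.58, and the AFMID pair at 0.05 and -0.30.

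The genes whose pattern over the 4 arrays was closest to that of KYNU were sought by the Euclidean distance between log2 values after subtracting each gene's own mean. They were CXCL1, a neutrophil chemokine gene (distance 0.11), ERP27 (0.11), the deiodinase gene DIO2 (0.15), the syntaxin gene STX3 (0.22) and CDKN1A, the gene of the cell cycle inhibitor p21 (0.22). CXCL1 was at 9.16 and 9.22 in the mimic arrays and at 10.37 and 10.53 in the controls. With 4 arrays in 2 groups this likeness is mostly a likeness of the group difference, which ran from -1.42 to -1.13 in these genes. DIO2 was dim in the mimic arrays, and probe sets above the dim level ranged from -1.27 to -0.08 for STX3.

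KYNU and the mean of the interferon-induced genes were both lower in both mimic arrays than in either control array. Within the control group, which holds only 2 arrays, KYNU did not follow the interferon-induced genes. The mean level of 12 such genes was 5.46 and 5.24 in the mimic arrays, 6.86 in control 1 and 5.77 in control 2. Control 1 thus exceeded control 2 by 1.10 for that list, while KYNU in control 1 was 0.06 below control 2. Without control replicate 1 the KYNU difference was -1.38, and without control replicate 2 it was -1.31. Myeloid cells are a known source of KYNU. The 8 myeloid markers summed to intensities of 119 and 116 in the mimic arrays and 125 and 118 in the controls, with PTPRC, CD163 and LYZ dim. Of the 5 myeloid markers tested, CD14 rose by 0.53 and TYROBP fell by 0.45. The 6 fibroblast markers summed to 55.4 and 62.4 in the mimic arrays and 66.0 and 68.0 in the controls, with COL3A1, DCN and LUM dim. The 5 hepatocyte markers, of which ALB, SERPINA1 and FGA were dim, summed to 43.6 and 48.3 against 47.6 and 49.99. Among squamous markers KRT14 rose by 1.15 and KRT5 by 0.48, while SFN (-0.14), DSG3 (-0.07) and CDH1 (0.04) did not pass. The part of these marker shifts, or of interferon signalling, in the KYNU result was not tested.

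**Figure D3:**
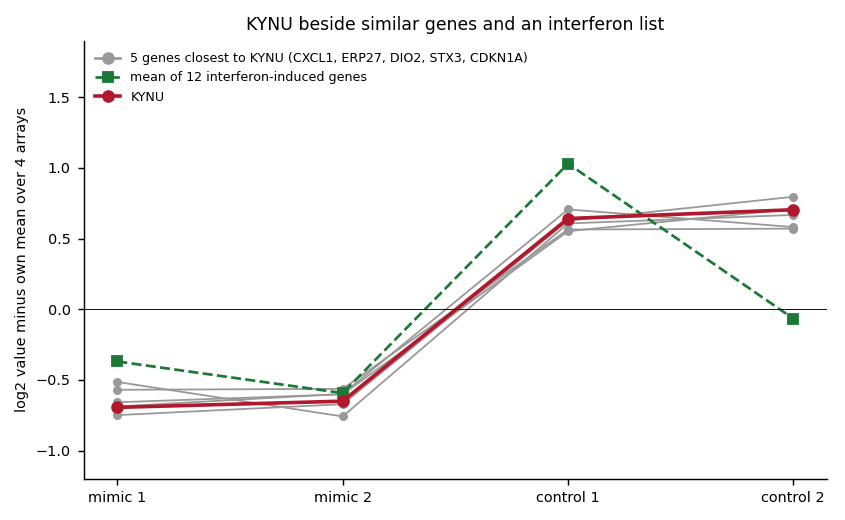
Log2 value minus the gene's own mean over the 4 arrays (y axis) in each array (x axis) for KYNU (red), the 5 genes closest to it (grey) and the mean of 12 interferon-induced genes (green, dashed). Lines only link values of a gene, since arrays have no order. KYNU and the grey genes are high in both control arrays, while the interferon list is above its own mean in control 1 alone.

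Promoter sequence is shown for KYNU and for CXCL1, the gene closest to it in pattern. The windows are the 250 bases before the RefSeq gene start (GRCh38.p14), on the gene's own strand, at chr2:142877414-142877663 (plus strand) for KYNU and chr4:73869143-73869392 (plus strand) for CXCL1. Capitals mark matches on either strand to 4 patterns: GAAANNGAA for the interferon response element, TTCNNNGAA for the gamma-activated site, GGANTTTCC for an NF-kB site and GCGTG for the core of the dioxin response element. The first pattern and the second can overlap each other.
KYNU: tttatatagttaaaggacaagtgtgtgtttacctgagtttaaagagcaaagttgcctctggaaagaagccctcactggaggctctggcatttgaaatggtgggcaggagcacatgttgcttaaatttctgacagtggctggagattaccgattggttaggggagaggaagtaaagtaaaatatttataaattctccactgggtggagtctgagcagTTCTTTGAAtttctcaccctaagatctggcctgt
CXCL1: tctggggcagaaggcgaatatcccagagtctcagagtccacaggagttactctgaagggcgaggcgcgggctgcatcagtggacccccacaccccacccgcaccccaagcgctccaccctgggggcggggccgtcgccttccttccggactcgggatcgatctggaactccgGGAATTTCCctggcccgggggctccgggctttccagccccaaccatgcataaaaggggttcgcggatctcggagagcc
KYNU held 1 match, to the gamma-activated site pattern, 34 to 26 bases before its start, and CXCL1 held 1, to the NF-kB pattern, 78 to 70 bases before its start. Of 35116 promoter windows of this length, 6.88% held the interferon pattern, 6.57% the gamma-activated pattern, 1.45% the NF-kB pattern and 32.2% the dioxin core. Of the 10 genes, 8 were in the promoter table. For KYNU, TDO2, KMO, HAAO and AFMID the table's start is the start of the gene, and of the last 4 AFMID held a match, to the dioxin core. For AADAT, QPRT and NAMPT it lies inside the gene, so those windows are not described. A match is a run of letters and not evidence of a bound factor.

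Of the pathway's side branches, 1 of 5 tested genes fell and 0 rose in limma (2 and 0 at an unadjusted p under 0.05). Of all genes, 12.3% passed as lower and 17.7% as higher. The list's median difference was -0.28. It was -0.13 without _s_at and _x_at probe sets, -0.11 without control replicate 1 and -0.17 without control replicate 2. The gene that fell was KYAT1, a kynurenine aminotransferase like AADAT, by 0.30 ± 0.063 (adjusted p = 0.0262), from 6.30 and 6.27 in the controls to 6.04 and 5.94. That call was lost with a replicate block (adjusted p = 0.0516). It was also lost on leaving out any 1 array, where far fewer genes or none passed, with differences from -0.35 to -0.25. KYAT3, the related aminotransferase, gave 0.08 and did not pass. Among these aminotransferases the AADAT difference was thus positive and the KYAT1 difference negative.

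Genes of tryptophan supply and charging had 3 of 6 higher and 1 lower, with a median of 0.21. Among all genes 17.7% passed as higher and 12.3% as lower. WARS2, the mitochondrial tryptophanyl-tRNA synthetase, rose 1.82-fold (0.87 ± 0.071, limma adjusted p = 0.0025), from 4.76 and 4.73 in the controls to 5.68 and 5.55. WARS1, its cytosolic counterpart and a gene known to respond to interferon gamma, rose by 0.34 ± 0.058 (adjusted p = 0.0153), and its 3 probe sets above the dim level lay between 0.33 and 0.46. The amino acid transporter gene SLC7A8 rose by 0.29 in its brightest probe set, with the opposite sign in 2 of 3 and a mean of 0.04 over them. It is named after its value was seen. SLC16A10, a transporter of aromatic amino acids, fell by 0.40 ± 0.086 near the dim level. Its difference was -0.15 with a pseudocount of 16, where the call was lost (adjusted p = 0.0532). SLC7A5 and SLC3A2, which together form the main tryptophan carrier of many tumour cells, gave 0.13 and 0.12 and did not pass.

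A list of 11 other genes around NAD synthesis also holds genes that do not make NAD itself, such as NAD kinases and a nucleotidase. In it 2 genes rose and 0 fell in limma (3 and 0 at an unadjusted p under 0.05), with a median of 0.12. Over all genes, 17.7% rose and 12.3% fell in limma. The 2 that rose were the nucleotidase gene and 1 NAD kinase gene. NT5E, the surface nucleotidase CD73, rose 2.10-fold (1.07 ± 0.12, limma adjusted p = 0.00529), from 4.65 and 4.92 to 5.76 and 5.95, although a second probe set gave 0.03 and the mean of both 0.55. NADK2, the mitochondrial NAD kinase, rose 1.82-fold (0.86 ± 0.085, adjusted p = 0.00395), and its 3 probe sets above the dim level lay between 0.38 and 0.86. NADSYN1, the last step shared by the route from tryptophan and the route from nicotinic acid, was at -0.01. The adenylyltransferase genes NMNAT1, NMNAT2 and NMNAT3 gave -0.09, 0.12 and 0.15, and none of them passed.

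Genes that use NAD or nicotinamide went both ways, with 3 of 16 higher, 4 lower and a median of 0.02. Shares over all genes were 17.7% higher and 12.3% lower. NNMT, which methylates nicotinamide and so takes it out of salvage, fell 1.58-fold (-0.66 ± 0.059, limma adjusted p = 0.00313). It was at 11.12 and 11.15 in the controls and at 10.50 and 10.45 in the mimic arrays, a narrow spread in both groups. PARP9, an interferon-induced gene, fell by 0.76 ± 0.19, with controls at 7.60 and 7.03, the first being the higher one as in the interferon list. Its other probe set above the dim level gave 0.04. The difference was -0.47 without control replicate 1. It was -0.36 with the mean of probe sets, where the call was lost (limma adjusted p = 0.0582), as it was with no filter (0.0563). PARP2, a DNA damage sensor, rose by 0.50 ± 0.11 (adjusted p = 0.032), a call lost in 7 of 13 alternatives. Of these, 3 kept all 4 arrays (limma adjusted p from 0.0521 to 0.0762). AOX1 (-0.49), SIRT7 (-0.21), SIRT1 (0.31) and SIRT5 (0.28) also passed and are named after their values were seen. SIRT5 turned to -0.08 with the mean of its probe sets. CD38 and BST1, the NAD glycohydrolase genes, were dim. Once quantile-normalized, the list had 0 higher and 6 lower in limma (3 and 6 unadjusted).

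Aryl hydrocarbon receptor genes had 1 of 8 higher and 2 lower, with a median of -0.11. For comparison, 17.7% of all genes passed as higher and 12.3% as lower. The receptor gene AHR fell by 0.24 ± 0.056 (limma adjusted p = 0.0332) and the target gene CYP1B1 by 0.25 ± 0.069 (adjusted p = 0.0488). AHRR, the repressor that the receptor itself induces, rose by 0.57 ± 0.15 (adjusted p = 0.0451) in its brightest probe set and gave -0.24 in its other. The classical target CYP1A1 was at 0.02, TIPARP at -0.05 and NQO1 at -0.17, and these did not pass. Once quantile-normalized, this list had 0 higher and 3 lower in limma (1 and 4 unadjusted). The calls of AHR, CYP1B1 and AHRR were lost in 7 of 13, 8 of 12 and 7 of 13 alternatives. Of these, 3, 4 and 4 kept all 4 arrays.

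Among cytokine and interferon signalling genes, 2 of 10 tested rose and 2 fell, with a median of 0.06. The whole array had 17.7% of tested genes higher and 12.3% lower. IL6 was at 5.76 and 5.85 in the mimic arrays and at 8.03 and 8.31 in the controls (-2.37 ± 0.11, limma adjusted p = 0.00106), with a second probe set at -0.16 and a mean of -1.26 over both. SOCS3, the feedback inhibitor of IL6 signalling, fell by 0.58 ± 0.10 (adjusted p = 0.0155). IL1B rose by 1.11 ± 0.064 (adjusted p = 0.0013), and STAT3, named after its value was seen, by 0.51, with 1 of 3 probe sets at -0.02. IRF1, TNF and the interferon gamma receptor genes IFNGR1 and IFNGR2 lay between -0.03 and 0.07 and did not pass.

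Of 12 tested interferon-induced genes, 3 fell and 1 rose, with a median of -1.11. By the same threshold 12.3% of all genes fell and 17.7% rose. TRIM22 (-2.34 ± 0.41), IRF9 (-1.44 ± 0.28) and GBP1 (-0.995 ± 0.14, named after its value was seen) fell, and the chemokine gene CXCL10 rose by 1.22 ± 0.060. The 4 TRIM22 probe sets above the dim level ran from -2.34 to -0.14, with a mean of -1.01. Without control replicate 1 the calls of TRIM22 (-1.72), IRF9 (-1.04) and GBP1 (-0.80) were lost. The median was -0.36 without control replicate 1, with 0 lower in limma (6 unadjusted), and -1.75 without control replicate 2, with 7 lower. For each of the 7 lists around the pathway, no gene passed in limma on leaving out either mimic array, as for all genes, of which 2389 to 2481 were higher and 1717 to 1880 lower at an unadjusted p under 0.05. On leaving out either control array in turn, NADK2, NNMT, IL6, IL1B and CXCL10 passed both times. NT5E passed only without control replicate 2, and WARS1, WARS2, SOCS3 and STAT3 passed neither time. No more than 2 genes of a list passed in 1 direction on leaving out either control array, apart from those 7.

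**Figure D4:**
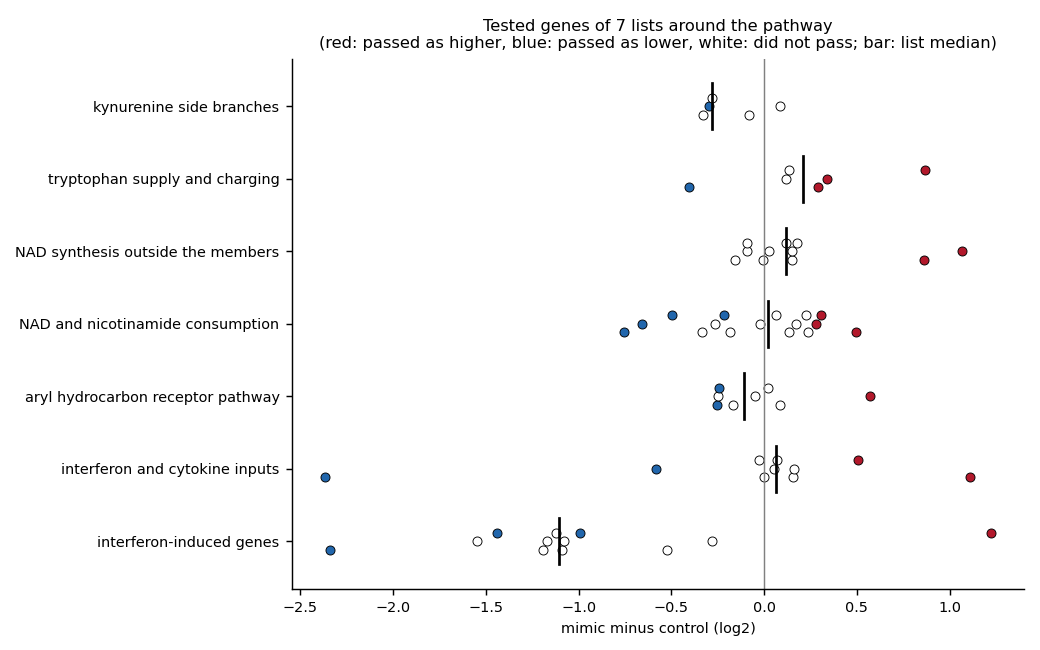
Mimic minus control (x axis, log2) for the tested genes of 7 lists around the pathway (y axis). Each point is a gene, red or blue where it passed as higher or lower and white where it did not, and the bar is the list median. Medians lie between -0.28 and 0.21 except for the interferon-induced genes at -1.11.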

How the data were processed

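The deposited table holds 1 intensity per probe set and array on a linear scale, made by the authors with RMA per the submitters' processing notes; software and settings: not given in the sources used here. Log2 was taken. Of 49293 probe sets, 44988 were annotated to 1 gene (44961 matched by gene identifier to RefSeq GRCh38.p14, whose symbol was used), 1832 to several and 2473 to none. Genes were tested with limma 3.58.1 (R 4.3.3, 4.98 total degrees of freedom). The fit was also run on simulated independent arrays, which cannot show whether the calls in the present arrays hold. With 2 arrays a group, the smallest two-sided p of an exact permutation test is 0.333. The members and gene lists were chosen with earlier results of these data known. Named genes were all members, up to 3 called genes per list with the largest difference (or the 1 largest where none passed), and the 5 closest to KYNU. Same-numbered replicates did not deviate together over all genes (r = -0.001), so no replicate block was used. In the interferon-induced list, however, the mean was higher in replicate 1 of both groups. It was 5.46 against 5.24 in the mimic arrays and 6.86 against 5.77 in the controls. With a replicate block 3 of its 12 tested genes were lower in limma. At an unadjusted p under 0.05, 9 were lower with the block and 5 without it. Array number limits the precision.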

Additional observations from a re-analysis of the deposited data

How the results depend on the processing

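Alternatives changed 1 choice at a time: a replicate block, quantile normalization, median centring, the dim filter, a pseudocount of 16, the probe set rule, a trend in the prior and each left-out array. KYNU lay between -1.43 and -1.03 in 13 alternatives. With the replicate block 979 genes were lower, 2917 probe sets higher and 878 lower, and 0 member probe sets besides KYNU were lower (3 at an unadjusted p under 0.05 in limma); the shared number is not a documented pairing. That last count was also 0 with no filter, a pseudocount of 16 or a trend in the prior (1 unadjusted in each). After quantile normalization 3903 probe sets were lower, and with no filter 1614. Without _s_at and _x_at probe sets 2902 were higher and 1577 lower, of fewer tested. With the lowest 50% left out AADAT and the lower AFMID probe set are no longer tested, so member genes higher, and member probe sets higher and lower, came to 0 (0, 0 and 2 unadjusted). Leaving out each array in turn gave 0 to 796 genes higher, 0 to 167 lower, 0 to 1 member genes higher, and 0 probe sets in either direction, members included (lowest adjusted p from 0.0649 to 0.0836, with 3070 to 6246 at an unadjusted p under 0.05 in 1 direction). SIRT5 turned to -0.0794 with the mean of its probe sets. With no detection calls, low values cannot be told from background.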

Other observations

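A further probe set carries the symbol QPRT under a pair of gene identifiers and so did not count as a member. It was at 4.25 and 4.15 in the mimic arrays and at 4.45 and 4.50 in the controls, a difference of -0.28 with groups that did not overlap, beside -0.17 for the QPRT probe set of the report.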
